A study of Mus musculus with 8 samples.

Results

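The 7 genes described here encode the small proteins that cells attach to other proteins, and they are *Ubb* and *Rps27a* for ubiquitin, *Nedd8*, *Sumo2*, *Sumo3*, *Ufm1* and *Urm1*. They were chosen by gene symbol, under a rule that uses no measured value but was set with earlier results of these data known, and all 7 were found among the 41709 genes of the expression table. RNA sequencing covered 8 tibialis anterior (TA) muscles of male C57BL/6J mice aged 3 months. In the siUBA1 group, 4 muscles were electroporated with 1500 pmol of a pool of 4 siRNAs against *Uba1* in 30 µl after hyaluronidase pretreatment, and in the siNT group the contralateral TA of the same mice received the same dose of non-targeting siRNAs. Muscles were collected 7 days later. All siNT muscles were right legs and all siUBA1 muscles were left legs, so the leg and the siRNA cannot be told apart. The siRNA was delivered to the whole muscle by electroporation, and the RNA came from all of its cells. In such bulk samples fewer cells of a type and less RNA per cell cannot be told apart.

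Ubiquitin and its relatives share a compact fold and a tail that ends in glycine. An E1 enzyme activates that tail with ATP, an E2 enzyme carries it, and the modifier is then joined to a target protein, in most cases through an E3 ligase. UBA1, the E1 enzyme knocked down in these muscles, is the main activator of ubiquitin, whereas the other modifiers have E1 enzymes of their own, such as UBA3 with NAE1 for NEDD8, UBA2 with SAE1 for SUMO proteins and MOCS3 for URM1. In muscle, ubiquitin marks sarcomeric and other proteins for the proteasome, and NEDD8 switches on the cullin ligases that build many of the ubiquitin chains. SUMO proteins modify mostly nuclear proteins, UFM1 is attached to ribosomes at the endoplasmic reticulum, and URM1 supplies sulfur for tRNA modification.

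The coding end of each gene is shown first because the glycine made there is the point that each E1 enzyme activates. The lines give the coding strand 5′ to 3′ from the GENCODE M39 annotation of the GRCm39 assembly, starting 10 codons before the glycine codons, which are in capitals.
Ubb: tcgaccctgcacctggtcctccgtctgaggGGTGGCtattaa
Rps27a: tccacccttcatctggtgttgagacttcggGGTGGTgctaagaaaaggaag
Nedd8: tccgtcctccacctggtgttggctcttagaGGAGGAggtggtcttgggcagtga
Sumo2: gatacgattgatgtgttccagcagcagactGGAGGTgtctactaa
Sumo3: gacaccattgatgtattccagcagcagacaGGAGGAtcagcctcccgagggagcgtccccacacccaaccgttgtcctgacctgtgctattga
Ufm1: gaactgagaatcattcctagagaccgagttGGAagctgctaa
Urm1: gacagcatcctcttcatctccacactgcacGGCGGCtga
In 6 of the 7 genes the capitals mark a pair of glycine codons, and *Ufm1* has a lone one at codon 83. Only *Urm1* stops directly after them, with the pair at codons 100 and 101 of 101. The other sequences code for a tail that a protease must remove before the modifier can be used, and this tail was 1 codon long in *Ubb*, 2 in *Sumo2* and *Ufm1*, 5 in *Nedd8* and 18 in *Sumo3*. In *Rps27a* the pair at codons 75 and 76 is followed by 80 codons that encode a protein of the small ribosomal subunit, of which the line above shows the first 5.

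*Ubb* holds 4 ubiquitin units in a row, while *Rps27a* holds 1 unit, fused to a ribosomal protein. Each unit is 228 bases or 76 codons long. The first unit of *Ubb* and the unit of *Rps27a* are given in full to show how far genes for the same protein can differ in RNA, with capitals in the second line for the bases that differ from the first.
Ubb unit 1: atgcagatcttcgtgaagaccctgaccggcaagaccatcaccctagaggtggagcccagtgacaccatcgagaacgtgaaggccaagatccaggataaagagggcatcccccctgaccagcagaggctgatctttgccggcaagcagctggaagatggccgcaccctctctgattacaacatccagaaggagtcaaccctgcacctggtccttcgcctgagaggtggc
Rps27a unit: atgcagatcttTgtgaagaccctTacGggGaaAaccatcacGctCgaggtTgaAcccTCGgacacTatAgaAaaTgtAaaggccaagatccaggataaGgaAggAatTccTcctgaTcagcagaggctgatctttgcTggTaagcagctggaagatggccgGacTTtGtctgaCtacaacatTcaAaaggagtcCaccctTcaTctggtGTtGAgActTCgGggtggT
They differ at 44 bases, 38 of them at the last position of a codon, and no codon encodes another amino acid. The identity of the *Rps27a* unit with the first *Ubb* unit was 80.7%. The other *Ubb* units differed from the first at 5, 2 and 10 bases, which left 97.8%, 99.1% and 95.6% identity, and also encoded the same amino acids.

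On GRCm39, *Ubb* is at chr11:62441951-62445102 on the plus strand, with 2 exons and a coding region in which all units lie in a row. *Rps27a* is at chr11:29494748-29498109 on the minus strand with 5 exons. *Sumo2* is on the same chromosome at chr11:115410892-115427116 on the minus strand with 4 exons. *Nedd8* is at chr14:55899715-55910069, minus strand, with 4 exons, and *Sumo3* is at chr10:77441863-77455936, plus strand, with 4 exons. *Ufm1* is at chr3:53760796-53771251, minus strand, with 6 exons, and *Urm1* is at chr2:29710087-29735017, plus strand, with 5 exons. Exon numbers are those of the canonical transcript.

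Expression was deposited as TPM (transcripts per 1000000), a unit that corrects for transcript length and sums to 1000000 over all genes of a muscle. Changes are given as the log2 fold change (log2FC), computed throughout on log2(TPM + 1) as siUBA1 against siNT. Read totals cannot be recovered from TPM, so the depth of each muscle is unknown. Genes of the mitochondrial genome took 42.1% to 45.7% of the TPM in siNT muscles and 39.9% to 50.3% in siUBA1 muscles. All 12 skeletal muscle markers were detected, and they summed to between 167100 and 184600 TPM in siNT and between 132200 and 185600 TPM in siUBA1. The log2FC was above 0 for 2 of the 12, against 81.8% of all genes tested. At an unadjusted p under 0.05, 0 were called, against 16% of all genes tested as higher and 1.98% as lower. With median-ratio scaling, in which TPM were rescaled by the median ratio to a common reference, 6 of the 12 were lower, against 6.18% of all genes tested. The part of this in the values of the modifier genes was not tested. The targeted gene *Uba1* was at 60.6, 59.0, 63.6 and 59.1 TPM in siNT muscles 1 to 4 and at 18.1, 6.77, 15.8 and 23.1 TPM in the siUBA1 muscles of the same mice. The groups did not overlap, and the siUBA1 mean was 26.3% of the siNT mean. Its log2FC was -1.98 (SE 0.29, n = 4 per group). Its limma p adjusted over all genes by Benjamini-Hochberg was 0.0527, and 0.0278 with the mouse as replicate block. Leaving out siUBA1 muscle 2, the lowest, gave 0.00257, leaving out siUBA1 muscle 4 gave 0.0206, and leaving out any of the other 6 muscles gave 0.0838 to 0.230. The exact permutation p (two-sided) was 0.0286, the smallest that 4 against 4 muscles can give.

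In these muscles with less *Uba1* mRNA, no difference in the mRNA of the 7 modifier genes was detected. Of the 7, 0 passed the adjusted p of 0.05 by limma, where 3 of 11530 genes tested (0.026%) did, and 0 had an unadjusted p under 0.05, where 16% of all genes tested did so as higher and 1.98% as lower. With the mouse as replicate block the counts were also 0, against 0.494% of all genes by adjusted p and 22.4% higher and 2.8% lower at an unadjusted p under 0.05. By the Kruskal-Wallis test, the counts were 0 by adjusted p, where 0 of all genes tested passed, and 1 at an unadjusted p under 0.05, where 17.5% of all genes tested were higher and 1.71% lower. The 95% confidence intervals of the 7 log2FC values lay within -0.29 and 0.31, that is, between 0.819 and 1.24 times the siNT value of TPM + 1. The log2FC was above 0 for 6 of the 7 genes, and 81.8% of all genes tested were above 0 as well. The median log2FC was 0.097 over the 7 genes and 0.11 over all genes tested. With median-ratio scaling, the median of all genes moved to 0.0016, 50.7% of them were above 0, and so were 2 of the 7 modifier genes.

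**Figure D1:**
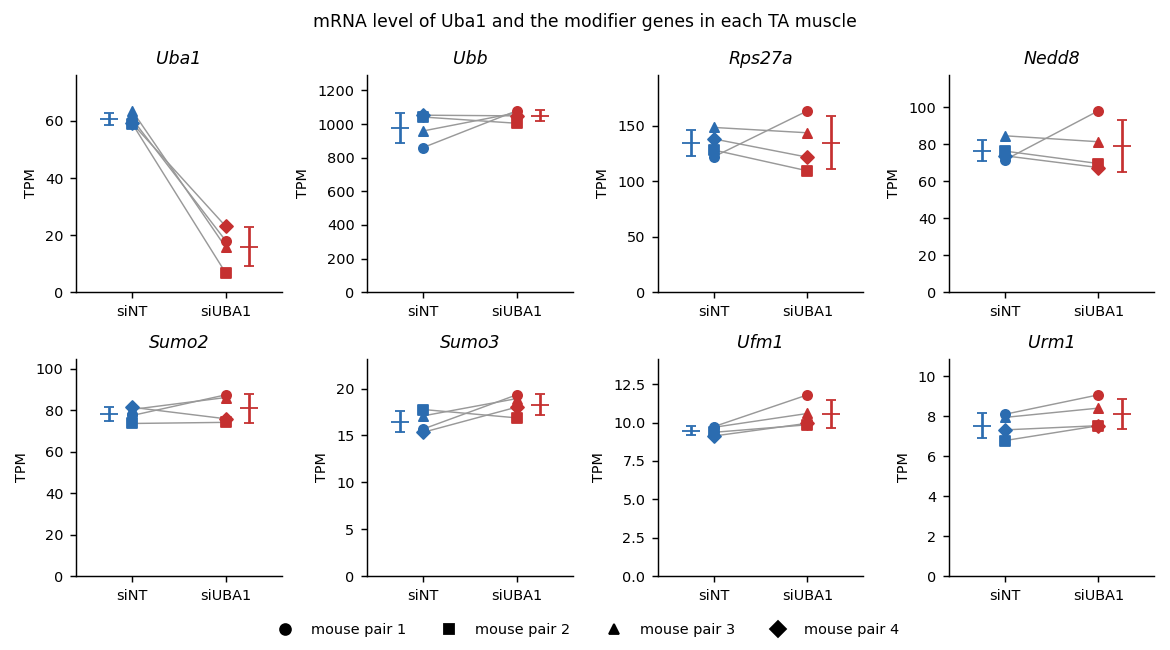
TPM (y axis, from 0) of *Uba1* and the 7 modifier genes in the 4 siNT (blue) and 4 siUBA1 (red) TA muscles, with grey lines joining the legs of 1 mouse and side bars giving mean ± SD. *Uba1* is lower in the siUBA1 leg of each pair. *Ufm1* is the modifier gene whose groups do not overlap, where 10.6% of all genes tested had all siUBA1 values above all siNT values. The siUBA1 muscle of pair 1 (circle) is the highest of the 8 for all 7 modifier genes, against 34.9% of all genes tested.

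*Ubb*, a polyubiquitin gene that is induced by stress and adds to the free ubiquitin pool, was by far the most abundant of the 7 mRNAs. It was at 860.6, 1042, 959.3 and 1053 TPM in siNT muscles 1 to 4, and at 1079, 1005, 1067 and 1049 TPM in the siUBA1 muscles. The siUBA1 values lay close together, muscles 1 and 3 above all siNT muscles and muscles 2 and 4 inside the siNT range, so the groups overlapped. The mean was 979 ± 89.2 TPM (SD, n = 4) in siNT and 1050 ± 32.5 TPM in siUBA1. The log2FC was 0.11 (SE 0.078, 95% interval -0.070 to 0.28, limma adjusted p = 0.463). It was higher in 2 of 4 mice, and without siNT muscle 1, the lowest, the log2FC was 0.045.

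*Rps27a*, which yields ubiquitin and a ribosomal protein in equal amounts, was at 122.2, 128.1, 148.5 and 138.1 TPM in siNT and at 163.5, 109.4, 143.7 and 121.7 TPM in siUBA1. The siUBA1 group held both the highest and the lowest value of the 8 muscles. Its means were 134 ± 11.6 and 135 ± 23.9 TPM, with a log2FC of -0.0093 (SE 0.12, 95% interval -0.29 to 0.27, limma adjusted p = 0.973). Only the mouse of pair 1 had the higher level in the siUBA1 leg, and without that siUBA1 muscle the log2FC was -0.11. With median-ratio scaling of all 8 muscles it was -0.13 (95% interval -0.33 to 0.068).

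Ratios between pairs of the 7 genes, chosen after the values had been seen, did not separate the groups. *Ubb* to *Rps27a* TPM was 7.32 ± 0.725 (SD, n = 4) in siNT and 7.96 ± 1.17 in siUBA1 and was higher in the siUBA1 leg of 3 of 4 mice, with an exact two-sided permutation p of 0.429. *Sumo2* to *Sumo3* was 4.77 ± 0.487 and 4.42 ± 0.154 and lower in 3 of 4 mice, with an exact permutation p of 0.257. *Nedd8* to *Sumo2* was 0.979 ± 0.0754 and 0.973 ± 0.102, with an exact permutation p of 0.943. After Benjamini-Hochberg adjustment over the 3 ratios, the exact permutation p were 0.643, 0.643 and 0.943. The exact sign-flip test over the replicate block of 4 mice gave p of 0.25, 0.375 and 0.875, where the smallest it can give is 0.125.

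*Nedd8* was at 71.5, 76.3, 84.5 and 73.7 TPM in siNT and at 98.0, 69.5, 81.3 and 67.4 TPM in siUBA1. As for *Rps27a*, the siUBA1 group held the extremes at both ends, and only pair 1 was higher in the siUBA1 leg. The means were 76.5 ± 5.69 and 79.1 ± 14.1 TPM (SD, n = 4), with a log2FC of 0.034 (SE 0.12, 95% interval -0.23 to 0.30, limma adjusted p = 0.884). Without siUBA1 muscle 1 the log2FC was -0.074.

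*Sumo2*, which together with *Sumo3* encodes the SUMO proteins that form chains and respond to stress, was at 77.4, 73.6, 80.3 and 81.4 TPM in siNT and at 87.4, 74.1, 86.1 and 75.9 TPM in siUBA1. Muscles 1 and 3 of the siUBA1 group were above all siNT muscles, and the other siUBA1 muscles lay within the siNT range. The log2FC was 0.045 (SE 0.074, 95% interval -0.12 to 0.21, limma adjusted p = 0.741). Leaving out single muscles moved it from 0.0072 without siUBA1 muscle 1 to 0.085 without siUBA1 muscle 2.

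The mRNA of *Sumo3* was at 15.7, 17.8, 17.1 and 15.3 TPM in siNT and at 19.3, 16.9, 18.9 and 18.0 TPM in siUBA1. Only siUBA1 muscle 2 fell inside the siNT range. The means were 16.5 ± 1.15 and 18.3 ± 1.09 TPM, and the log2FC of 0.14 (SE 0.072, 95% interval -0.019 to 0.31, limma adjusted p = 0.318) was the largest of the 7. With median-ratio scaling it was 0.028 (95% interval -0.11 to 0.17). With quantile normalization it was 0.052, and *Ubb* was then the highest of the 7 at 0.14. Without siUBA1 muscle 2, *Sumo3* was the only one of the 7 with an unadjusted p under 0.05, where 17% of all genes tested were higher at that threshold without that muscle. The coding regions of *Sumo2* and *Sumo3* were 73.0% identical over 285 aligned bases, and in both groups *Sumo2* mRNA was more than 4-fold as abundant.

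*Ufm1* was at 9.74, 9.37, 9.69 and 9.13 TPM in siNT and at 11.8, 9.85, 10.6 and 9.95 TPM in siUBA1. It was the only one of the 7 genes whose groups did not overlap, and siUBA1 muscle 2 exceeded siNT muscle 1 by a small margin. Among all genes tested, 10.6% had all siUBA1 values above all siNT values. The means were 9.48 ± 0.289 and 10.6 ± 0.893 TPM (SD, n = 4). The log2FC was 0.14 (SE 0.071, 95% interval -0.023 to 0.30, limma adjusted p = 0.327). The exact permutation p was 0.0286, the smallest that 4 against 4 muscles can give, and the exact sign-flip p over the 4 pairs was 0.125. Without siUBA1 muscle 1 the log2FC was 0.087. With median-ratio scaling it was 0.026 (95% interval -0.093 to 0.15).

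*Urm1*, the least abundant of the 7, was at 8.10, 6.78, 7.94 and 7.32 TPM in siNT and at 9.07, 7.53, 8.40 and 7.53 TPM in siUBA1. It was higher in the siUBA1 leg of all 4 mice, but differences between mice were as large, so that the groups overlapped. *Ufm1* and *Urm1* were the 2 of the 7 that were higher in 4 of 4 mice, and 0 of the 7 were lower in all of them, where 32.2% of all genes tested were higher and 2.98% lower. The log2FC of *Urm1* was 0.097 (SE 0.083, 95% interval -0.091 to 0.28, limma adjusted p = 0.530). The exact permutation p was 0.286, and the exact sign-flip p over the 4 pairs was 0.125, the smallest it can give. Without siUBA1 muscle 1 the log2FC was 0.048, and without siNT muscle 2 it was 0.053.

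**Figure D2:**
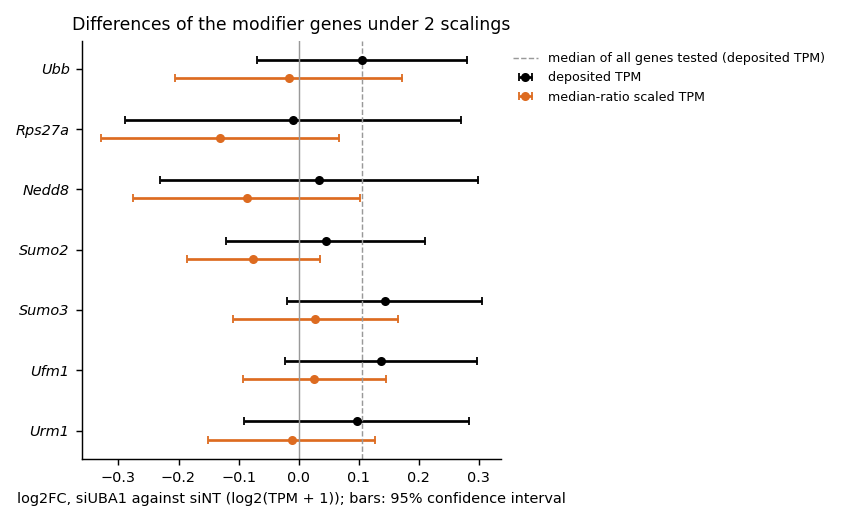
Log2FC of the 7 modifier genes on log2(TPM + 1), siUBA1 against siNT, with 95% confidence intervals from limma, for the deposited TPM (black) and after median-ratio scaling (orange). All intervals include 0, and rescaling shifts each estimate down by about the median of all genes (dashed line, 0.11).

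The order of the levels was the same in both groups. *Ubb* exceeded *Rps27a* by 7.29-fold in siNT and 7.80-fold in siUBA1, and *Rps27a* exceeded *Sumo2* by 1.72-fold and 1.66-fold. *Sumo2* and *Nedd8* could not be ordered, since their ranges overlapped and *Sumo2* was above in 5 of 8 muscles. *Nedd8* exceeded *Sumo3* by 4.64-fold and 4.32-fold, *Sumo3* exceeded *Ufm1* by 1.74-fold and 1.73-fold, and *Ufm1* exceeded *Urm1* by 1.26-fold and 1.30-fold, in each case with no overlap of the muscles. Among the 11530 genes tested, *Ubb* ranked 66 by mean TPM, *Rps27a* 482, *Sumo2* 785, *Nedd8* 803, *Sumo3* 3140, *Ufm1* 4722 and *Urm1* 5508.

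The spread between muscles differed among the genes. Coefficients of variation (CV, SD over mean TPM) in siNT ran from 3.05% for *Ufm1* to 9.12% for *Ubb*, below the median of 9.77% over all genes tested. In siUBA1 they ran from 3.09% for *Ubb* to 17.8% for *Rps27a* and *Nedd8*, against a median of 12.1%. Both medians cover genes of every level that passed the filter, and the 7 genes were not matched to genes of like level. The siUBA1 muscle of pair 1 had the highest TPM of the 8 for all 7 genes, where 34.9% of all genes tested had their maximum in that muscle and 34.3% in siUBA1 muscle 3. Likewise, the signed siUBA1 minus siNT difference was largest in pair 1 for all 7 genes, against 46.2% of all genes tested. The mitochondrial share was 45.7% in siNT muscle 1 and 40.2% in siUBA1 muscle 1. After median-ratio scaling, 2 of the 7 genes were highest in siUBA1 muscle 1, against 12.9% of all genes tested. The signed siUBA1 minus siNT difference was then largest in pair 1 for 3 of the 7, against 28.9% of all genes tested. Pair 1 was singled out after its values had been seen, and the part of the mitochondrial share in this pattern was not tested.

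For each gene, the genes whose log2(TPM + 1) correlated best with it over the 8 muscles are named as a description, since these muscles share scaling and mice. For *Ubb* they were *Extl1* (Pearson r = 0.97), the lysosomal protease gene *Ctsl* (0.969) and the proteasome subunit gene *Psma7* (0.965). For *Rps27a* they were the E2 enzyme gene *Ube2e1* (0.987) and the ribosomal protein genes *Rpl39* (0.984) and *Rpl41* (0.981). For *Nedd8* they were *Mrpl53* (0.987), *Smpx* (0.986) and *Pi4k2a* (0.984), and for *Sumo2* they were *Eif2s3x* (0.986), *Rnf25* (0.981) and *Eif4a3* (0.976). *Sumo3* was followed by *Zfp830* (0.979), *Rpn1* (0.971) and *Lrwd1* (0.970), *Ufm1* by *Vti1b* (0.987), *Thap7* (0.986) and *H1f0* (0.984), and *Urm1* by *Akr1b10* (0.984), *C030037D09Rik* (0.983) and *Dynlt1c* (0.977).

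Several of these mRNAs share sequence with other loci, and the assignment of reads that match more than 1 gene is not given in the sources used here. Of all 100-base windows of the canonical transcript, 40.0% of those of *Ubb* also occurred in the transcript of another gene, on either strand. The share was 85.7% for *Rps27a* and 88.3% for *Sumo2*. In *Rps27a*, 1002 of the 1405 shared windows lay in *Mtif2*, which overlaps it on the other strand, and the *Sumo2* windows were shared with 11 genes, pseudogenes among them. It was 20.8% for *Nedd8*, all with the overlapping gene *Gmpr2*, 5.7% for *Sumo3*, 1.8% for *Ufm1* and 0 for *Urm1*. The library kit did not mark strand. *Mtif2* was at 13.4 and 14.0 TPM in siNT and siUBA1, and *Gmpr2* was at 1.03 and 1.36 TPM. *Gm8797* and *Gm12279*, which share windows with *Ubb*, were at 7.74 and 10.6 TPM and at 0.943 and 0.853 TPM. *Gm49325*, which shares windows with *Sumo3*, was at 0.697 and 1.48 TPM. The levels of *Rps27a* and *Sumo2*, with the largest shared parts, and that of *Ubb*, with the next largest, are uncertain for this reason.

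Further genes for ubiquitin-like proteins were tested in the same way. Of 12 listed, 11 passed the filter on low values, and 0 passed the adjusted p by limma. At an unadjusted p under 0.05, 1 was higher and 0 lower, against 16% and 1.98% of all genes tested. That gene was *Ubl3*, which encodes a membrane-anchored ubiquitin-like protein. It was at 18.5, 20.1, 18.0 and 20.4 TPM in siNT and at 23.3, 23.9, 22.7 and 24.1 TPM in siUBA1. All siUBA1 values were above all siNT values, as for 10.6% of all genes tested. Its log2FC was 0.27 (SE 0.063, limma adjusted p = 0.139, or 0.0849 with replicate block). With median-ratio scaling the log2FC was 0.16 (95% interval -0.034 to 0.35) and 0 of these genes had an unadjusted p under 0.05, where 4.43% of all genes tested were higher and 6.18% lower.

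The autophagy modifiers *Map1lc3a*, *Map1lc3b*, *Gabarap*, *Gabarapl1*, *Gabarapl2* and *Atg12* had log2FC of 0.084, 0.048, 0.090, 0.027, 0.0096 and 0.014, all with overlapping groups. *Fau* (0.068), *Ubl4a* (0.022) and *Ubl5* (0.031) were as close to 0. *Isg15*, the interferon-induced modifier, ranged from 5.24 to 9.22 TPM in siNT and from 3.55 to 25.4 TPM in siUBA1, where muscle 3 alone held the high value. *Ubd* was listed at 0 in 6 of 8 muscles and was not tested.

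**Figure D3:**
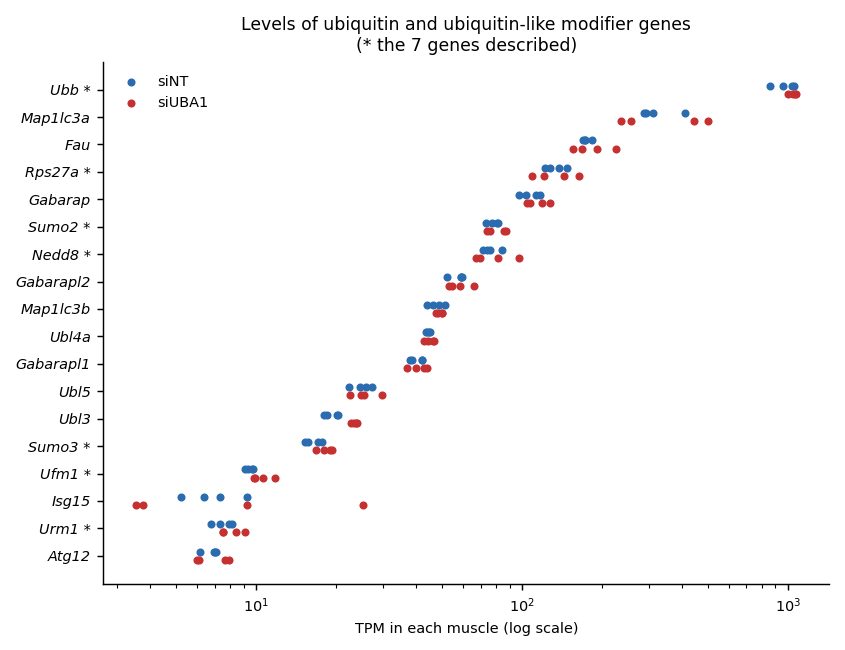
TPM (log scale) of 18 tested genes for ubiquitin and ubiquitin-like modifiers in each of the 4 siNT (blue) and 4 siUBA1 (red) muscles, ordered by mean level, with the 7 genes described marked by an asterisk. *Ubb* stands at the top and the groups overlap for nearly all genes, with *Ubl3* and *Ufm1* as exceptions.

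The enzymes that activate and process the modifiers were counted in 5 lists with 64 genes in all, each of which passed the filter. By limma, 0 passed the adjusted p, and with replicate block 1 did, the targeted gene *Uba1*. At an unadjusted p under 0.05, 11 were higher and 2 lower, and the median log2FC of the 64 was 0.090. Of all genes tested, 16% were higher and 1.98% lower. With median-ratio scaling the counts were 2 higher and 6 lower, against 4.43% and 6.18% of all genes tested. Leaving out siNT muscle 1 gave 6 higher genes, against 12.4% of all genes tested. Leaving out siNT muscle 2, siUBA1 muscle 1 or siUBA1 muscle 3 gave 5, against 10%, 12.3% and 10.5%.

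E1 genes of other modifiers were also measured. *Uba3* was at 12.1 ± 1.36 TPM in siNT and 12.8 ± 2.19 TPM in siUBA1 (SD, n = 4). Its partner *Nae1* was at 5.74 ± 0.237 and 6.61 ± 0.544 TPM, with a log2FC of 0.17, or 0.068 with median-ratio scaling, and a limma adjusted p of 0.258. *Uba2* was at 14.4 ± 1.21 and 15.2 ± 1.63 TPM, and *Sae1* at 16.7 ± 1.62 and 18.2 ± 2.93 TPM. *Mocs3* was at 1.94 ± 0.311 and 2.29 ± 0.433 TPM. With the deposited TPM the log2FC was above 0 for all 5, as for 81.8% of all genes tested, and with median-ratio scaling it was below 0 for *Uba3*, *Uba2* and *Sae1*.

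Of 12 genes for ubiquitin activation, precursor processing and recycling, 2 were higher at an unadjusted p under 0.05 (the hydrolase gene *Uchl3* and the deubiquitinase gene *Usp9x*) and 1 was lower (*Uba1*), against 16% and 1.98% of all genes tested. With replicate block *Usp9x* was no longer called. The log2FC was 0.26 for both *Uchl3* and *Usp9x*, or 0.15 for both with median-ratio scaling. With that scaling 0 genes of this list were higher and 3 lower, against 4.43% and 6.18% of all genes tested. Of 16 NEDD8 pathway genes, *Nae1*, *Dcun1d4*, *Dcun1d5* and *Cand2* were higher and *Dcun1d3* was lower at an unadjusted p under 0.05, against 16% and 1.98% of all genes tested. With replicate block *Nae1* was no longer called. With median-ratio scaling, 1 was higher and 2 were lower, against 4.43% and 6.18%. *Cand2*, a muscle-enriched exchange factor for cullin ligases, was at 50.3, 49.1, 51.4 and 47.9 TPM in siNT and at 62.3, 59.1, 68.2 and 57.4 TPM in siUBA1. Its siUBA1 values were all above its siNT values, as for 10.6% of all genes tested, and the log2FC was 0.31 (SE 0.068, limma adjusted p = 0.137, or 0.0794 with replicate block). With median-ratio scaling the log2FC of *Cand2* was 0.19. *Dcun1d3*, a scaffold for NEDD8 transfer to cullins, was at 3.95, 3.81, 3.76 and 3.56 TPM in siNT and at 3.38, 2.58, 2.97 and 2.67 TPM in siUBA1. All siUBA1 values were below all siNT values, as for 1.01% of all genes tested, and the log2FC was -0.29 (SE 0.082, limma adjusted p = 0.166).

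Of 23 SUMO pathway genes, 4 were higher and 0 lower at an unadjusted p under 0.05, namely the SUMO ligase genes *Pias1*, *Pias3* and *Pias4* and the SUMO protease gene *Uspl1*, against 16% and 1.98% of all genes tested. With replicate block 5 were higher, against 22.4% of all genes tested, with *Pias1* no longer called and *Pias2* and *Senp5* called in addition. With median-ratio scaling, 0 were higher and 0 lower, against 4.43% and 6.18%. *Pias3* had the highest log2FC at 0.25 (SE 0.097, limma adjusted p = 0.234), or 0.15 with median-ratio scaling, and the PIAS-related gene *Zmiz2* had the lowest at -0.045. Of 8 UFM1 pathway genes, 0 were called at an unadjusted p under 0.05, against 16% of all genes tested as higher and 1.98% as lower. Their log2FC ran from -0.0094 for the protease gene *Ufsp1* to 0.14 for the ligase gene *Ufl1*. Of 5 URM1 pathway genes, 1 was higher, the tRNA thiolation gene *Ctu1* (log2FC 0.27, limma adjusted p = 0.225), against 16% of all genes tested, and the sulfur donor gene *Nfs1* had the lowest log2FC at -0.0092. With median-ratio scaling 1 was higher and 1, *Nfs1*, was lower (log2FC -0.13), against 4.43% and 6.18% of all genes tested.

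*Rps27a* can also be read as a gene of the small ribosomal subunit. Of 31 such genes, 0 were called at an unadjusted p under 0.05, against 16% of all genes tested as higher and 1.98% as lower. Their median log2FC was 0.024, against 0.11 over all genes tested, with values from -0.065 (*Rps12*) to 0.16 (*Rps14*). The log2FC of *Rps27a* lay inside this range. With median-ratio scaling the median of the 31 was -0.096, against 0.0016 over all genes tested. Of the 31, 2 were then above 0, against 50.7% of all genes tested, and *Rps27a* was at -0.13.

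*Ubb* belongs to the genes induced by heat shock, so 12 heat shock response genes were set beside it. At an unadjusted p under 0.05, 2 were higher (*Hsph1* and *Hspe1*) and 3 were lower (*Hspa1a*, *Hspa1b* and *Dnajb1*), against 16% and 1.98% of all genes tested. With median-ratio scaling the counts were 1 higher and 5 lower, against 4.43% and 6.18%, and *Hspe1* was no longer called. The co-chaperone gene *Dnajb1* was at 9.91, 14.8, 8.16 and 13.7 TPM in siNT and at 5.80, 6.07, 4.14 and 7.33 TPM in siUBA1. All its siUBA1 values were below its siNT values, as for 1.01% of all genes tested, and the log2FC was -0.87 (SE 0.20, limma adjusted p = 0.139, or 0.0149 with replicate block). The median log2FC of the 12 was -0.031, beside 0.11 for *Ubb*, and with median-ratio scaling it was -0.145, beside -0.017 for *Ubb*.

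**Figure D4:**
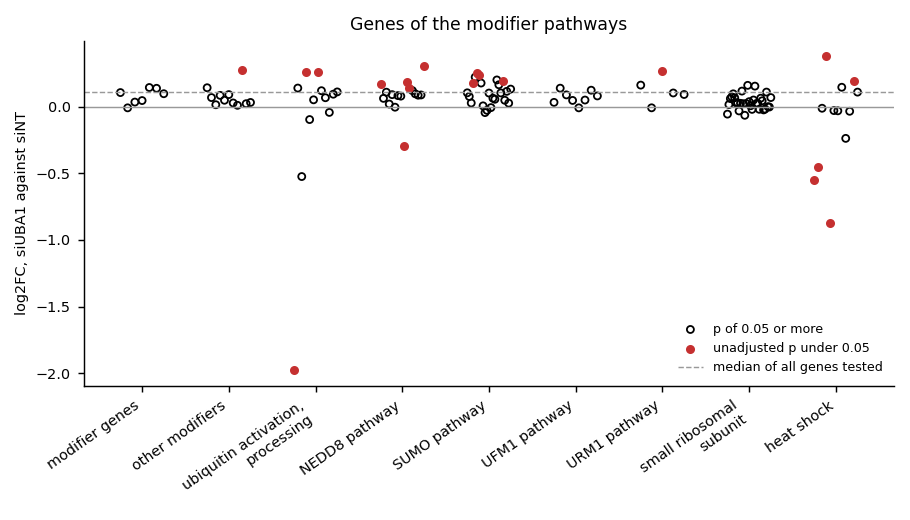
Log2FC on log2(TPM + 1), siUBA1 against siNT, of each tested gene in 9 lists, with filled red points for an unadjusted limma p under 0.05 and a dashed line at the median of all genes tested (0.11). The lowest point is *Uba1* at -1.98, and the 7 modifier genes lie between -0.0093 and 0.14 with no filled point.

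Markers of other cells in the muscle were measured as well. The 10 leukocyte markers, of which 6 passed the filter, summed to between 112 and 335 TPM in siNT and between 113 and 370 TPM in siUBA1. The 8 endothelial markers summed to between 145 and 196 TPM and between 162 and 189 TPM. The 8 fibroblast markers summed to between 567 and 1163 TPM and between 739 and 1440 TPM, and 2 of them, *Col1a2* and *Lum*, were higher at an unadjusted p under 0.05, against 16% of all genes tested. With replicate block 4 were higher, *Col1a1* and *Pdgfra* in addition, as was the leukocyte marker *S100a8*, against 22.4% of all genes tested. With median-ratio scaling 1 fibroblast marker, *Lum*, was higher, against 4.43%. No marker was at 0 in every muscle, and the part of these cells in the values of the modifier genes was not tested.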

How the data were processed

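The data were gene expression values of 8 TA muscles, 4 per group, grouped by the siRNA named in the sample descriptions. Treatment fields of the siUBA1 samples number the target differently in each replicate, whereas titles and descriptions give UBA1 for all. The authors extracted total RNA with TRIzol, prepared TruSeq libraries, removed low-quality read ends, mapped the rest in CLC Genomics Workbench against GRCm39, and deposited one TPM value per gene and muscle. The annotation used was not given in the sources used here.

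From the deposited TPM, log2(TPM + 1) was tested with limma 3.58.1 (R 4.3.3, trended variance, two-sided), unpaired, for the 11530 genes that reached 1 TPM in 4 or more of the 8 muscles, with Benjamini-Hochberg adjustment over all of them. This replaced the Kruskal-Wallis test of the study as the main test. Single values were compared by exact permutation tests. Contralateral legs of 1 mouse received the non-targeting and the *Uba1* siRNAs, per the methods of the study. Which muscles came from the same mouse was inferred from matching numbers in the sample titles. On that basis the replicate number was a block in an alternative fit. The deviations from the group means correlated between legs at -0.00037, 0.20, 0.584 and 0.537 in mice 1 to 4. The other alternatives changed the pseudocount, the filter, the scaling and the test, or left out each muscle in turn.

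The 7 genes and all gene lists were chosen with earlier results of these data known. Named genes were the 7, the targeted gene and other E1 genes, the further modifier genes, the highest and lowest log2FC of each list, and the 3 genes most correlated with each of the 7. Other list genes with an unadjusted p under 0.05, and *Pias2*, *Senp5*, *S100a8*, *Col1a1*, *Col1a2*, *Pdgfra* and *Lum*, were named after their values had been seen. Ubiquitin units were counted in GENCODE coding sequences, as stretches of 76 codons with at least 70% base identity to the first *Ubb* unit, in place of protein sequences. Some genes are not reported here and were left out of the lists and their counts. P-values measure the spread between these 8 muscles. TPM carry no depth, so no counting interval was given.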

Additional observations from a re-analysis of the deposited data

Results flagged for a closer look

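Dixon's criterion at 95%, which flags about 1 in 20 groups by chance, was applied to 82 groups of 4 muscles. They covered the modifier genes, the other named genes and the 3 ratios between modifier genes. In 5 of them a value lay far from the other 3, and none of the 5 belonged to the 7 modifier genes. *Atg12* was at 6.15 TPM in siNT muscle 4, below the other siNT muscles. *Gabarapl2* was at 52.4 TPM in siNT muscle 1, against 59.3 TPM or more in the others. *Zmiz2* was at 30.4 TPM in siUBA1 muscle 3, above the others of its group. *Ubd* was at 0.204 TPM in siNT muscle 1 and at 0.0687 TPM in siUBA1 muscle 2, and was listed at 0 in the other 6 muscles, so that any value above 0 meets the criterion.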

How the results depend on the processing

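None of the 7 modifier genes passed the adjusted p under any setting tried. At an unadjusted p under 0.05 the count of 0 became 1 by the Kruskal-Wallis test (*Ufm1*) and 2 when TPM were rescaled without mitochondrial genes (*Sumo3* and *Ufm1*), where 17.5% and 22% of all genes tested were higher. It ranged from 0 to 1 when each muscle was left out, with 10% to 17.7% of all genes tested higher. The number of the 7 with log2FC above 0 was 2 with median-ratio scaling, with or without the replicate block, and 3 with quantile normalization. Of the pathway genes, the counts higher and lower at an unadjusted p were 2 and 6 with median-ratio scaling (4.43% and 6.18% of all genes tested), 3 and 5 with that scaling and the replicate block (6.96% and 8.76%), 2 and 4 with quantile normalization (4.45% and 5.16%), and 7 and 1 among genes with a mean of 5 TPM or more (15.8% and 2.11%), and 5 to 13 were higher and 2 lower when each muscle was left out (10% to 17.7% and 1.52% to 2.45%). By adjusted p, the replicate block added *Uba1* and *Dnajb1*. At an unadjusted p under 0.05 it removed *Nae1*, *Usp9x* and *Pias1* and added *Pias2* and *Senp5*, so that 10 of the 64 pathway genes were higher in place of 11, while the share of all genes tested went from 16% to 22.4%. The adjusted p of *Uba1* was 0.0333 with median-ratio scaling, 0.0376 with quantile normalization, 0.0466 among genes with a mean of 5 TPM or more, 0.0486 without mitochondrial genes, 0.0666 with the pseudocount of 0.1, 0.131 with no filter, 0.122 without moderation and 0.180 by the Kruskal-Wallis test. That of *Dcun1d3* was 0.0467 after quantile normalization.

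The signs of log2FC near 0 depended on the scaling. With median-ratio scaling, and the same with the replicate block added, log2FC was -0.017 for *Ubb*, -0.087 for *Nedd8*, -0.075 for *Sumo2*, -0.012 for *Urm1*, -0.11 for *Gabarapl2*, -0.054 for *Fau*, -0.093 for *Atg12*, -0.037 for *Map1lc3a*, -0.072 for *Map1lc3b*, -0.031 for *Gabarap*, -0.092 for *Gabarapl1*, -0.098 for *Ubl4a*, -0.086 for *Ubl5*, -0.052 for *Uba3*, -0.038 for *Uba2* and -0.012 for *Sae1*. With quantile normalization it was -0.030 for *Nedd8*, -0.011 for *Sumo2*, -0.0050 for *Urm1*, -0.097 for *Atg12*, -0.031 for *Map1lc3b*, -0.050 for *Gabarapl1*, -0.061 for *Gabarapl2*, -0.058 for *Ubl4a*, -0.040 for *Ubl5*, -0.032 for *Uba3* and -0.017 for *Uba2*. Without mitochondrial genes it was 0.0086 for *Rps27a* and *Nfs1* and 0.0073 for *Ufsp1*. The cause was not tested.

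When each muscle was left out, log2FC ranged from -0.11 to 0.084 for *Rps27a*, -0.074 to 0.10 for *Nedd8*, 0.045 to 0.14 for *Ubb*, 0.0072 to 0.085 for *Sumo2*, 0.11 to 0.18 for *Sumo3*, 0.087 to 0.17 for *Ufm1*, 0.048 to 0.13 for *Urm1*, -0.39 to 0.46 for *Isg15*, -0.030 to 0.14 for *Fau*, -0.046 to 0.070 for *Atg12*, -0.099 to 0.26 for *Map1lc3a*, -0.0068 to 0.074 for *Gabarapl1*, -0.052 to 0.049 for *Gabarapl2*, -0.039 to 0.087 for *Ubl5*, -0.020 to 0.13 for *Uba3*, -0.15 to 0.11 for *Ufsp1*, -0.054 to 0.026 for *Nfs1* and -0.14 to 0.054 for *Rps12*. The log2 difference of the *Nedd8* to *Sumo2* ratio ranged from -0.082 to 0.030. The pseudocount turned no sign, and the filters, the unmoderated linear model and the Kruskal-Wallis test leave log2FC as it is. The precision rests on 4 muscles per group, and the depth is unknown.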
